A study of Mus musculus with 16 samples.

Results

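Growth hormone reaches skeletal muscle through the circulation and acts by a short route from the cell surface to the nucleus. Its receptor, *Ghr*, has no enzyme activity of its own and works through the kinase *Jak2*, which phosphorylates the transcription factors *Stat5a* and *Stat5b*. STAT5 dimers then switch on genes that include the feedback inhibitors *Socs2* and *Cish* and, in many tissues, the growth factor *Igf1*. *Igf1* in turn acts through its receptor *Igf1r* and the adaptor *Irs1*, and secreted binding proteins such as *Igfbp3* and *Igfbp5* hold it and control how much is free. These 10 genes were described here out of the 41388 in the count table, and each was taken as the row with its symbol. The set was selected on measured log2 fold changes of *Mtm1* KO against WT in these data, among them the lower level of *Stat5b* in *Mtm1* KO muscle, so the values of *Mtm1* KO against WT are given for the 10 genes as a description without a test.

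The data were RNA sequencing counts from quadriceps of 36-day-old mice on a C57BL/6 background. *Mtm1* encodes myotubularin, a lipid phosphatase whose loss causes X-linked myotubular myopathy, and the *Mtm1* KO mice carry a targeted deletion of exon 4 of the gene. The 4 groups were untreated wild type mice (WT), wild type mice given tamoxifen (WT + TAM), untreated knockouts (*Mtm1* KO) and knockouts given tamoxifen (*Mtm1* KO + TAM). Tamoxifen, a ligand of the estrogen receptor, was mixed into the chow at 40 mg/kg per day from day 21, and untreated mice ate standard chow. No other allele or agent is named in the labels. The mice were littermates by the study's supplement, with no label of the litter, and the labels give no sex, although the study's methods name males among the controls of its drug treatments.

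Each group has 4 libraries, and the study used 14 of the 16. It left out the libraries labelled WT replicate 1 and *Mtm1* KO replicate 12 and gave no reason. Counts per library ran from 25116179 to 29847222. *Mtm1* itself had 341 to 369 counts in the 3 WT libraries kept, 282 to 459 in WT + TAM, 63 to 76 in *Mtm1* KO and 53 to 97 in *Mtm1* KO + TAM. The table counts whole genes, so reads of single exons cannot be told apart. WT replicate 1 held 74 counts of *Mtm1*, within the knockout range, which goes against its label, and *Mtm1* KO replicate 12 had 85. Results below rest on the 14 libraries, and the values with the other 2 added are given where they bear on a result. Nothing in the labels says more of the libraries than 1 mouse each, and p-values measure the spread between these libraries. The tissue label was checked with 6 markers of muscle fibers, whose summed RPKM (deposited read counts scaled for gene length and library depth) ran from 58580 to 107169 over the 14 libraries, against at most 1.762 for 3 liver markers.

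Levels between genes were compared on the RPKM scale, which allows for gene length. Over the 14 libraries the mean level was highest for *Igfbp5*, at 72.8 ± 29.4 RPKM (SD, n = 14), followed by *Stat5b* at 28.9 ± 10.1 RPKM (SD, n = 14). *Igfbp3* (13.4 ± 3.22 RPKM), *Irs1* (12.7 ± 2.90 RPKM) and *Ghr* (11.6 ± 3.32 RPKM) lay within 1 SD of each other. *Igf1* followed at 6.06 ± 2.12 RPKM. *Stat5a* (2.79 ± 0.974 RPKM), *Socs2* (2.05 ± 0.601 RPKM), *Igf1r* (1.47 ± 0.552 RPKM) and *Cish* (1.30 ± 1.10 RPKM) were the lowest. Between neighbours in this order, the gap from *Igf1* to *Stat5a* was larger than the SD of either gene, those from *Stat5a* to *Socs2* and from *Socs2* to *Igf1r* were larger than only the smaller SD, and that from *Igf1r* to *Cish* was smaller than both. The order pools groups and was not the same in each. In WT the mean of *Cish* (2.345 RPKM) lay above those of *Stat5a* (1.919 RPKM), *Socs2* (1.524 RPKM) and *Igf1r* (0.8277 RPKM), and that of *Igfbp3* (11.81 RPKM) lay below *Irs1* (15.73 RPKM) and *Ghr* (14.43 RPKM). The WT mean of *Cish* rested on replicate 3, at 4.57 RPKM. Replicates 2 and 4 had 1.143 and 1.323 RPKM of *Cish*, below their *Stat5a* of 2.419 and 1.949 RPKM. In *Mtm1* KO *Igfbp3* reached 18.03 RPKM beside 19.62 RPKM for *Stat5b*.

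Within a gene, levels are given below as CPM, each count as a share of its library total scaled with TMM factors (normalized CPM). The scaling matters for genotype. With library size alone the median log2 fold change over the genes tested was 0.33 for *Mtm1* KO against WT and 0.27 for *Mtm1* KO + TAM against WT + TAM, and with TMM it was 0.02 and -0.01. The changes reported are relative to that median. In whole muscle, fewer cells of a type and less RNA per cell cannot be told apart.

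**Figure D1:**
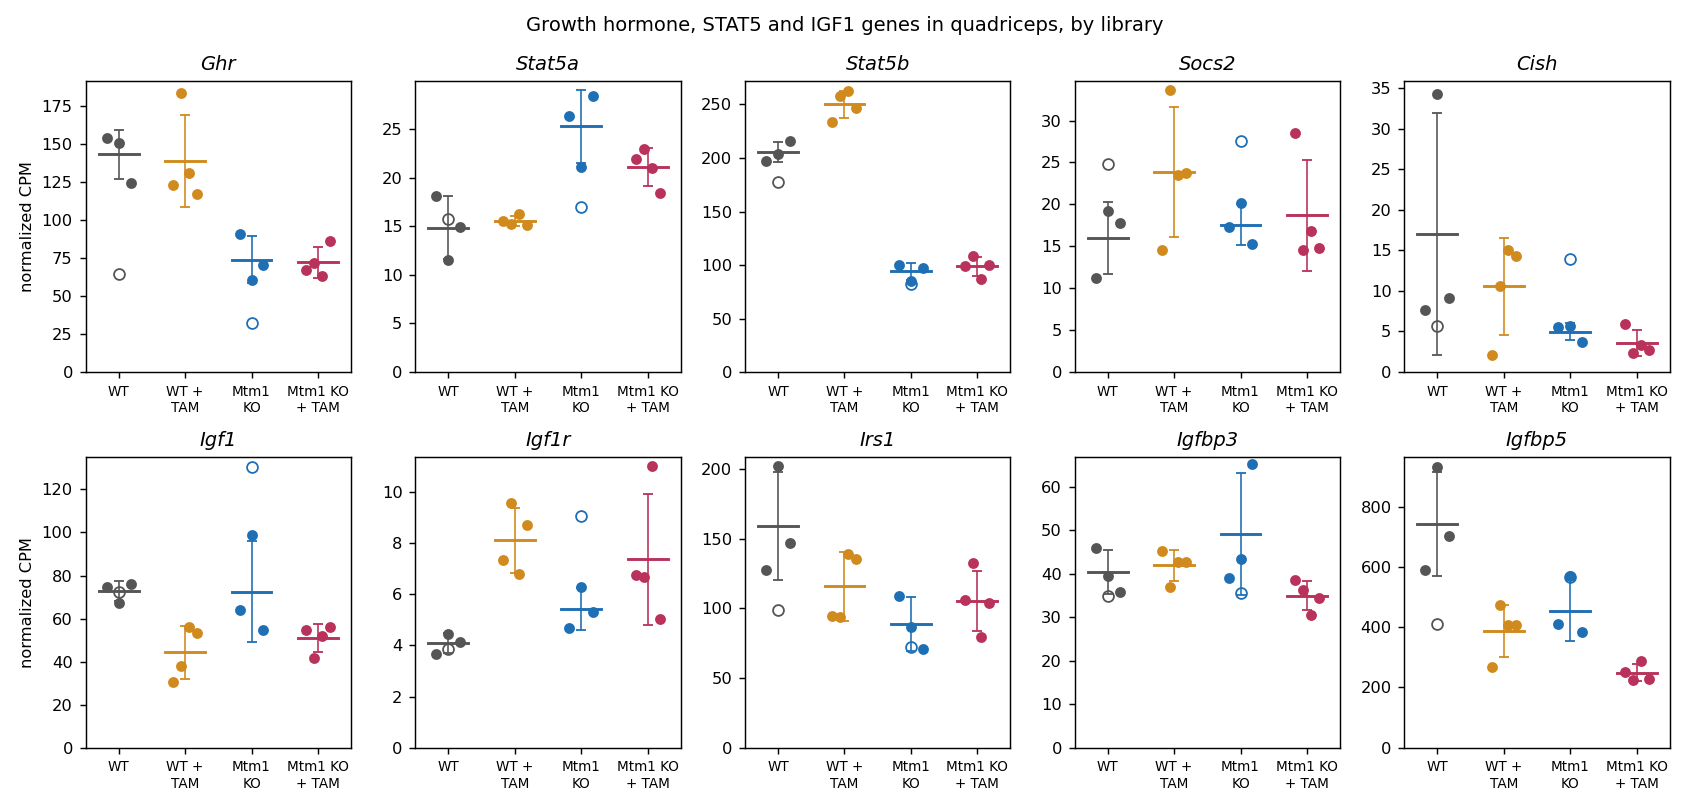
Normalized CPM of the 10 genes (vertical axes, 1 scale per gene from 0) in each library of the 4 groups. Filled points are the 14 libraries used, open points the 2 libraries the study left out, lines the group means and bars the SD over the filled points. Filled points of *Stat5b* stand between 197.6 and 262.8 in wild type mice and between 85.34 and 108.4 in knockouts, with or without tamoxifen. Its open points stand at 177.7 (labelled WT replicate 1) and 82.59 (*Mtm1* KO replicate 12).

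*Stat5b* (ENSMUSG00000020919) and *Stat5a* (ENSMUSG00000004043) lie next to each other on chromosome 11 (GRCm38, annotation GENCODE vM21), *Stat5b* from 100780731 to 100850724 on the minus strand and *Stat5a* from 100859351 to 100885169 on the plus strand. They point away from each other with 8626 bases between them. Their coding sequences are close copies, and this bears on how a read is assigned to either gene. Aligned over 2343 bases, the coding sequences of the transcripts Stat5a-201 and Stat5b-201 were 90.7% identical. The longest identical run covered 324 bases, from coding base 571 to 894 in both, and its first bases are shown to let the identity be seen. A read that lies inside such a run can come from either gene. The stretch from coding base 85 to 144 is shown for contrast, with the 19 bases that differ between the genes in capitals. All 3 were read from the GENCODE vM21 sequences of these transcripts, from the annotated coding start, 5′ to 3′.
Stat5a and Stat5b, coding bases 571 to 630: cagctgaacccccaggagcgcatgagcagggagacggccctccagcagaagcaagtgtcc
Stat5a, coding bases 85 to 144: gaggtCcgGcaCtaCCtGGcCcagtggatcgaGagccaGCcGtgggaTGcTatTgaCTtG
Stat5b, coding bases 85 to 144: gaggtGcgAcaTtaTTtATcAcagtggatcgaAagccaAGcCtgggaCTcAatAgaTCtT

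Over all exons, untranslated ones included, 11% of the 50-base stretches of *Stat5b* and 8.52% of those of *Stat5a* occurred in another gene, nearly all of them in the other Stat5 gene. How reads inside shared stretches were assigned is not given in the sources used here. *Stat5a* also shares 72 exonic bases with *Stat3* on the opposite strand, and the strand setting of the counting is not given in the sources used here.

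*Stat5b*, the STAT5 form best known for relaying growth hormone in muscle and liver, was measured at 197.6, 203.6 and 216.2 normalized CPM in the 3 WT libraries and at 100.2, 85.34 and 97.38 in the 3 *Mtm1* KO libraries. In WT + TAM it was 234.1, 257.5, 262.8 and 246.3, and in *Mtm1* KO + TAM 99.01, 108.4, 87.11 and 100. Every knockout library lay below every wild type library, with or without tamoxifen. The comparison of the treated groups uses libraries that played no part in the value of *Mtm1* KO against WT. In that comparison *Stat5b* was lower in *Mtm1* KO + TAM than in WT + TAM by a log2 fold change of -1.34 ± 0.10 (SE; edgeR quasi-likelihood, Benjamini-Hochberg adjustment over all genes tested, adjusted p = 4.74e-05; n = 4 and 4), which is 2.53-fold. The untreated groups, which chose the set, differed by -1.10 ± 0.12 (SE, n = 3 and 3). The call of *Stat5b* in the treated groups held under each alternative run, with log2 fold changes from -1.39 to -1.03. The libraries left out by the study had 177.7 (labelled WT replicate 1) and 82.59 (*Mtm1* KO replicate 12) normalized CPM of *Stat5b*, so that WT replicate 1 lay below the other WT libraries and above every knockout library although its *Mtm1* count was at the knockout level.

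*Stat5a* moved the other way. It was measured at 18.07, 11.56 and 14.95 normalized CPM in WT and 26.35, 21.09 and 28.4 in *Mtm1* KO, a difference in log2 fold change of 0.79 between the groups that chose the set. In WT + TAM it was 15.54, 15.25, 16.2 and 15.11, and in *Mtm1* KO + TAM 21.91, 22.92, 21.03 and 18.43. The treated groups did not overlap, and the log2 fold change between them was 0.44 ± 0.11 (SE), which did not pass the threshold of 0.01 (edgeR quasi-likelihood, adjusted p = 0.0199; 0.00208 to 0.0575 over the alternatives). It passed with DESeq2, with limma on log2 RPKM at either pseudocount and with library size scaling.

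The share of *Stat5a* among the counts of both Stat5 genes does not depend on the scaling of the libraries. It was 8.38%, 5.37% and 6.47% in WT and 6.23%, 5.59%, 5.81% and 5.78% in WT + TAM. In *Mtm1* KO it was 20.8%, 19.8% and 22.6%, and in *Mtm1* KO + TAM 18.1%, 17.5%, 19.4% and 15.6%. Each knockout library had a share above every wild type library. The mean log2 ratio of *Stat5a* to *Stat5b* counts was -4.01 ± 0.07 (SD, n = 4) in WT + TAM and -2.23 ± 0.16 (SD, n = 4) in treated knockouts. The difference of 1.78 had p = 0.0286 in a two-sided exact permutation test over the libraries, the smallest p that 4 against 4 allows, and p = 0.0857 when this exact test is adjusted over the 3 comparisons tested. *Mtm1* KO + TAM against *Mtm1* KO differed by -0.32 (exact permutation test, p = 0.0571, the smallest p possible; adjusted 0.0857), and WT + TAM against WT by -0.19 (exact permutation test, p = 0.457). Both of these comparisons reuse untreated libraries that chose the set, so their p-values are no independent test. For *Mtm1* KO against WT the difference was 1.91, given without a test. The libraries left out had shares of 8.13% (labelled WT replicate 1) and 17% (*Mtm1* KO replicate 12).

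**Figure D2:**
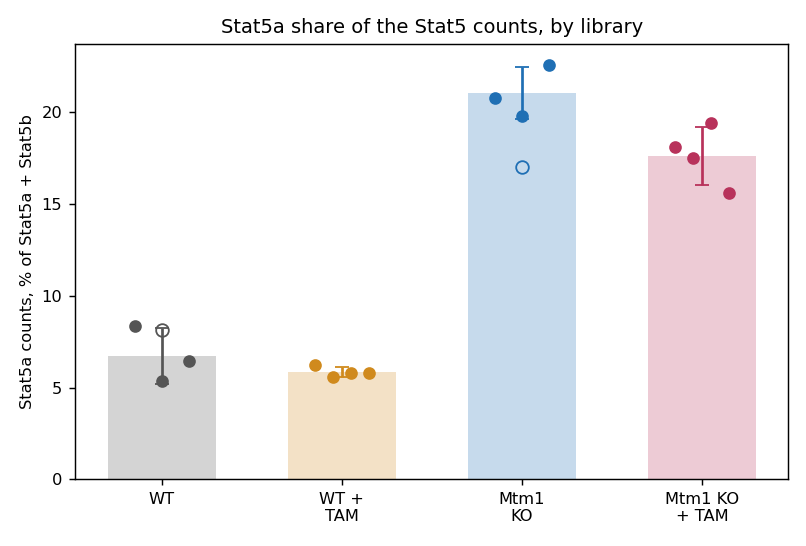
*Stat5a* counts as a percentage of *Stat5a* and *Stat5b* counts (vertical axis, from 0) in each library of the 4 groups. Bars are means over the filled points with the SD, and open points are the libraries the study left out; wild type libraries stand at 8.38% or lower and knockout libraries at 15.6% or higher.

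*Ghr* (ENSMUSG00000055737, chromosome 15, 3317760 to 3583492, minus strand) encodes the growth hormone receptor and shares no 50-base exon stretch with another gene. It was measured at 154.2, 150.6 and 124.4 normalized CPM in WT and 91, 60.62 and 70.18 in *Mtm1* KO. In WT + TAM it was 122.7, 183.8, 131.2 and 117.4, and in *Mtm1* KO + TAM 67.11, 71.58, 63.33 and 86.24. Knockout libraries lay below all wild type libraries among the 14. Between the treated groups the log2 fold change was -0.94 ± 0.16 (SE; edgeR quasi-likelihood, adjusted p = 0.00284), or 1.92-fold lower in *Mtm1* KO + TAM, and between the groups that chose the set it was -0.93 ± 0.17 (SE). The call between the treated groups was lost when *Mtm1* KO + TAM replicate 13 (adjusted p = 0.0108), 14 (0.0101) or 15 (0.0141) was left out, with limma on RPKM (0.0146 and 0.0159) and with library size scaling (0.01 after rounding), and the log2 fold change stayed between -1.04 and -0.60. The library labelled WT replicate 1 had 64.27 normalized CPM of *Ghr*, inside the range of the *Mtm1* KO libraries, and *Mtm1* KO replicate 12 had 32.22, the lowest of the 16.

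Of the 10 genes, 2 were called between *Mtm1* KO + TAM and WT + TAM at an adjusted p of at most 0.01, *Ghr* and *Stat5b*, both lower. Over all genes 979 of 14563 tested were called in this comparison, or 6.72%, with 498 higher and 481 lower. With library size scaling the calls over all genes were 1657 higher and 217 lower. At an adjusted p of at most 0.05 the set had 5 genes called, *Ghr*, *Stat5a*, *Stat5b*, *Cish* and *Igfbp5*, where 17.0% of all genes tested were called. Groups did not overlap for 3 of the 10 (1 higher, 2 lower), against 22.5% of all genes tested. Between the untreated groups, which chose the set, 7 of the 10 did not overlap (2 higher, 5 lower), beside 36.2% of all genes, and nothing is read from that count. The median log2 fold change of the 10 genes between the treated groups was -0.30, beside -0.01 over all genes.

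**Figure D3:**
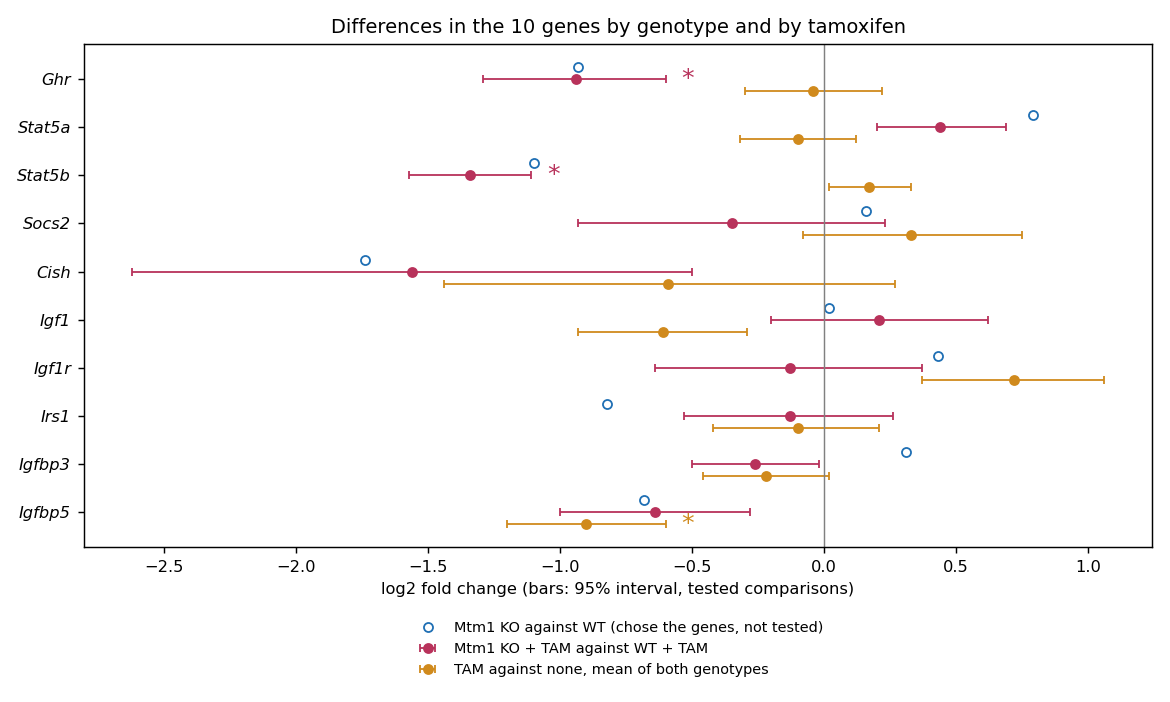
Log2 fold changes of the 10 genes (horizontal axis, edgeR) for *Mtm1* KO against WT (open points, untested, the comparison that chose the set), *Mtm1* KO + TAM against WT + TAM and tamoxifen against none as the mean over both genotypes. Bars are 95% intervals and stars mark an adjusted p of at most 0.01: *Stat5b* at -1.34 and *Ghr* at -0.94 between genotypes, and *Igfbp5* at -0.90 with tamoxifen.

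*Socs2* and *Cish* are feedback inhibitors that STAT5 induces and that limit signaling from the growth hormone receptor. *Cish* (ENSMUSG00000032578, chromosome 9, 107296026 to 107302784, plus strand) is shown with its start because STAT dimers bind a palindromic motif, TTCNNNGAA, and the RefSeq table of 300-base windows from 250 bases before to 50 bases after each start (GRCm38.p6) allowed it to be searched. The motif reads the same on both strands. Among the 12 windows listed for 9 of the 10 genes, only that of *Cish* held it, and it held 2 matches. Of all 32851 windows, 8.3% held at least 1 match and 0.457% held 2 or more. The matches begin at bases 1 and 12 counted from the RefSeq start and lie inside the first exon that GENCODE gives for *Cish*. The 30 bases around them, chr9:107296654-107296683 on the plus strand, have the matches in capitals.
Cish: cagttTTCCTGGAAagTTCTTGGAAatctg

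*Cish* counts were low and uneven. Normalized CPM were 7.685, 34.25 and 9.132 in WT, 2.11, 10.66, 15.09 and 14.35 in WT + TAM, 5.499, 5.731 and 3.726 in *Mtm1* KO, and 5.961, 2.373, 3.285 and 2.656 in *Mtm1* KO + TAM. WT replicate 3 was far above the other WT libraries, and WT + TAM replicate 5 was below every knockout library. Knockout libraries lay below wild type libraries in the untreated groups, and in the treated groups the overlap came from WT + TAM replicate 5. The log2 fold change between the treated groups was -1.56 ± 0.48 (SE; edgeR quasi-likelihood, adjusted p = 0.0494), and without WT + TAM replicate 5 it was -1.91 (adjusted p = 0.00273). That library also had the lowest level of *Igf1* and of *Igfbp5* among the WT + TAM libraries. Between the untreated groups the log2 fold change was -1.74 ± 0.51 (SE), and *Mtm1* KO replicate 12, left out by the study, had 13.9 normalized CPM, above the other *Mtm1* KO libraries. Adding it and WT replicate 1 brought the log2 fold change to -0.95, and leaving out WT replicate 3 brought it to -0.73. Of the exonic bases of *Cish*, 479 are shared with the antisense gene *Gm17041*, which had at most 13 counts in any library. The pseudogene *Gm17040* on the opposite strand shares 261 and had at most 14 counts. How reads in these overlaps were assigned is not given in the sources used here, so these low counts do not show that *Cish* was unaffected.

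*Socs2* (ENSMUSG00000020027, chromosome 10, 95385362 to 95417180, minus strand) was measured at 11.16, 19.18 and 17.72 normalized CPM in WT and 17.28, 20.14 and 15.28 in *Mtm1* KO, with groups that overlap. In WT + TAM it was 14.51, 33.59, 23.53 and 23.74, and in *Mtm1* KO + TAM 28.47, 14.6, 16.87 and 14.82, where replicate 13 stood apart from the other 3. The log2 fold change between the treated groups was -0.35 with a 95% interval from -0.93 to 0.23 (edgeR quasi-likelihood, adjusted p = 0.394), and -0.61 without replicate 13 (adjusted p = 0.118). Of the 50-base exon stretches of *Socs2*, 4.58% occurred in another gene, most of them in *Gm9847*, which had at most 4 counts in any library.

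*Igf1* (ENSMUSG00000020053, chromosome 10, 87858265 to 87937042, plus strand) is the growth factor that muscle itself makes and that growth hormone raises in liver. It was measured at 74.78, 67.45 and 76.14 normalized CPM in WT and 63.93, 99.06 and 54.71 in *Mtm1* KO, a log2 fold change of 0.02 between means with a wide spread in the knockouts. *Mtm1* KO replicate 12, left out by the study, had 130.2, the highest of the 16 libraries. In WT + TAM the level was 30.31, 37.98, 56.1 and 53.17, below all WT libraries, and in *Mtm1* KO + TAM 54.68, 41.57, 51.99 and 56.21. Between the treated groups the log2 fold change was 0.21 with a 95% interval from -0.20 to 0.62 (edgeR quasi-likelihood, adjusted p = 0.483). The lower *Ghr* and *Stat5b* of the treated knockouts stood beside a level of *Igf1* that was not shown to differ.

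*Igf1r* (ENSMUSG00000005533, chromosome 7, 67952827 to 68233668, plus strand), the receptor tyrosine kinase for *Igf1*, had 3.658, 4.446 and 4.137 normalized CPM in WT and 7.319, 9.574, 6.778 and 8.714 in WT + TAM, with no overlap. In *Mtm1* KO it was 4.681, 6.288 and 5.286, and in *Mtm1* KO + TAM 6.761, 6.668, 11 and 5.017, where the groups overlapped. Between the treated groups the log2 fold change was -0.13 with a 95% interval from -0.64 to 0.37 (edgeR quasi-likelihood, adjusted p = 0.732), and its sign turned with library size scaling. *Irs1* (ENSMUSG00000055980, chromosome 1, 82233101 to 82291416, minus strand), the adaptor that links the receptor to PI3-kinase, had 127.2, 202.1 and 147.1 normalized CPM in WT and 108.8, 86.45 and 70.69 in *Mtm1* KO, a log2 fold change of -0.82 between the groups that chose the set. The treated groups overlapped, with 94.72, 93.49, 139 and 135.6 in WT + TAM and 105.8, 132.4, 79.08 and 104 in *Mtm1* KO + TAM. Their log2 fold change was -0.13 with a 95% interval from -0.53 to 0.26 (edgeR quasi-likelihood, adjusted p = 0.657; 0.14 with library size scaling). The exons of *Irs1* share 2822 bases, 30.86% of their length, with *Gm9747* on the opposite strand, which had 15 to 151 counts per library.

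The binding proteins *Igfbp3* and *Igfbp5* share no 50-base exon stretch with another gene. *Igfbp5* (ENSMUSG00000026185, chromosome 1, 72857932 to 72874884, minus strand), which is made by muscle cells and fibroblasts and binds *Igf1* in the matrix, was measured at 590.7, 930 and 704.1 normalized CPM in WT and 411.1, 571 and 383.7 in *Mtm1* KO. In WT + TAM it was 266.9, 472.4, 407.4 and 407.2, and in *Mtm1* KO + TAM 252.2, 225.2, 288.4 and 229.7. Among the 14 libraries, levels of treated mice lay below those of untreated mice in each genotype. The library labelled WT replicate 1 had 411.4, inside the range of WT + TAM, and *Mtm1* KO replicate 12 had 567.4. Between the treated groups the log2 fold change was -0.64 ± 0.17 (SE; edgeR quasi-likelihood, adjusted p = 0.0233), and it passed the threshold with DESeq2 (adjusted p = 0.0031), with edgeR's exact test (0.00475) and without WT + TAM replicate 5 (0.00352). With library size scaling it was -0.36 (adjusted p = 0.151). *Igfbp3* (ENSMUSG00000020427, chromosome 11, 7206086 to 7213923, minus strand), the main carrier of *Igf1* in blood, was measured at 35.79 to 45.89 normalized CPM in WT, 36.97 to 45.34 in WT + TAM, 39.09 to 65.18 in *Mtm1* KO and 30.54 to 38.47 in *Mtm1* KO + TAM. Its log2 fold change between the treated groups was -0.26 (edgeR quasi-likelihood, adjusted p = 0.131) and 0.02 with library size scaling.

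The effect of tamoxifen on the 10 genes was first compared within each genotype. These comparisons reuse the untreated libraries of *Mtm1* KO against WT, which chose the set. Their p-values are therefore no independent test of the 10 genes. In *Mtm1* KO + TAM against *Mtm1* KO, 0 of the 10 were called, and 0 of 15062 genes tested (0%) by edgeR's quasi-likelihood test. At an unadjusted p under 0.05 there were 3 of the 10 and 1137 of all genes, and DESeq2 and the exact test of edgeR each called 1 of the 10, *Igfbp5*, and limma none. Over all 15062 genes DESeq2 called 72 and the exact test 73. In WT + TAM against WT, 0 of the 10 were called, beside 0.131% of all genes (19 of 14544). At an unadjusted p under 0.05 there were 5 of the 10 and 1549 of all genes, and DESeq2 and the exact test each called 2, *Igf1r* and *Igfbp5*, and limma none. Over all 14544 genes DESeq2 called 214 and the exact test 178. Groups did not overlap for 2 of the 10 in the knockout (7.57% of all genes tested), *Igfbp3* and *Igfbp5*, both lower with tamoxifen. In wild type they did not overlap for 4 (11.6% of all genes tested), with *Stat5b* and *Igf1r* higher and *Igf1* and *Igfbp5* lower.

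*Igfbp5* had a log2 fold change with tamoxifen of -0.88 (95% interval -1.25 to -0.51; edgeR quasi-likelihood, adjusted p = 0.132) in *Mtm1* KO and -0.93 (-1.39 to -0.48; adjusted p = 0.0869) in WT. For *Igf1* it was -0.52 (-0.95 to -0.08; adjusted p = 0.53) in *Mtm1* KO and -0.72 (-1.16 to -0.28; adjusted p = 0.19) in WT. For *Igf1r* it was 0.43 (-0.12 to 0.99; adjusted p = 0.784) in *Mtm1* KO and 0.99 (0.58 to 1.39; adjusted p = 0.0561) in WT. Without *Mtm1* KO replicate 10, which had the highest *Igf1* of its group, the value of *Igf1* in *Mtm1* KO was -0.23, and without *Mtm1* KO + TAM replicate 15 that of *Igf1r* was 0.17. Each of the 3 genes had values of the same sign in both genotypes, and none of these comparisons passed the threshold alone.

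A comparison of treated with untreated mice as the mean over both genotypes, in 1 fit of the 4 groups, was added after these values had been seen. In it *Igfbp5* fell with tamoxifen, with a log2 fold change of -0.90 ± 0.14 (SE; edgeR quasi-likelihood, adjusted p = 0.00339), or 1.87-fold, and was the only one of the 10 called, where 0.591% of all genes tested were called (92 of 15556). The call was lost when *Mtm1* KO replicate 10 was left out (-0.80, adjusted p = 0.0102) and held with the 2 libraries left out by the study added (-0.86, adjusted p = 0.0096). *Igf1r* had 0.72 ± 0.16 (SE, adjusted p = 0.0379) and *Igf1* -0.61 ± 0.15 (SE, adjusted p = 0.053), and DESeq2 called both at 0.01 (adjusted p = 0.00229 and 0.00623). At an adjusted p of at most 0.05 the set had 2 genes called, *Igfbp5* and *Igf1r*, beside 1.84% of all genes. *Ghr* and *Stat5b* had log2 fold changes with tamoxifen of -0.04 (95% interval -0.30 to 0.22) and 0.17 (0.02 to 0.33), with adjusted p of 0.917 and 0.296 in the same fit. Their difference between genotypes is larger than either end of these intervals.

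Whether tamoxifen acted differently in the 2 genotypes was estimated as an interaction in the same fit. This contrast holds the values of *Mtm1* KO against WT, which chose the set. Its p-values are therefore no independent test of the 10 genes. None of the 10 genes was called, nor any of the 15556 genes tested (0%), with 664 of all genes at an unadjusted p under 0.05. DESeq2 called 12 genes of the whole table and none of the 10. Among the 10, *Irs1* (difference in log2 fold change 0.71, 95% interval 0.07 to 1.34, unadjusted p = 0.0313 in the edgeR fit) and *Igfbp3* (-0.55, -1.02 to -0.07, unadjusted p = 0.0273 in the edgeR fit) had the lowest p, and the adjusted p was 1 after rounding for each of the 10. For *Igfbp5* the difference was 0.06 (95% interval -0.54 to 0.66) and for *Stat5b* -0.22 (-0.53 to 0.10).

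Markers of other cell types were set beside these levels as summed RPKM. RPKM follows library size alone, unlike the normalized CPM of the 10 genes. The closing section gives the lists whose differences moved on the normalized CPM scale. Satellite cell and myoblast markers were 5 genes, *Pax7*, *Myf5*, *Myod1*, *Myog* and *Myh3*. They stood at 27.33 to 34.7 in WT, 22.72 to 39.01 in WT + TAM, 97.67 to 130.4 in *Mtm1* KO and 69.22 to 98.68 in *Mtm1* KO + TAM. They were thus higher in knockouts, where *Stat5b* and *Ghr* were lower. Muscle fiber markers were 6 genes, *Acta1*, *Ckm*, *Myh4*, *Tnnt3*, *Mylpf* and *Atp2a1*. They stood at 89040 to 107169, 91684 to 97468, 65024 to 72170 and 58580 to 79528 in the same order of groups. They were lower in knockouts, as *Stat5b* and *Ghr* were. The list holds genes of fast fibers and none particular to slow fibers, so fiber content and fiber type cannot be told apart by it. Fat cell markers (5 genes: *Adipoq*, *Plin1*, *Cidec*, *Lep* and *Car3*) were at 295.5 to 1295 in WT and 1548 to 2296 in WT + TAM, and at 542.3 to 993.2 in *Mtm1* KO and 775.1 to 1717 in *Mtm1* KO + TAM. *Car3* is not specific to fat cells in muscle, and a summed RPKM follows the most abundant gene of its list. Fibroblast markers (6 genes) were at 808.8 to 857.4 in WT and 506 to 739.6 in WT + TAM, and at 953.6 to 1270 in *Mtm1* KO and 880.9 to 971.3 in *Mtm1* KO + TAM, and so were also higher in knockouts. Between WT and WT + TAM neither list overlapped, with fat cell markers higher and fibroblast markers lower in treated mice. There was no overlap there for *Stat5b* and *Igf1r*, higher, and *Igf1* and *Igfbp5*, lower, and none of these was called. Endothelial markers (5 genes) were at 44.59 to 70.85 and 35.96 to 47.13 in wild type mice and at 46.01 to 70.69 and 36.71 to 53.06 in knockouts, untreated and treated. Macrophage markers (6 genes) were at 17.25 to 23.72, 11.5 to 20.77, 29.15 to 43.34 and 26.59 to 61.92 in the same order of groups as the fiber markers, and so were higher in knockouts. In these lists no marker was at 0 throughout a group, and among the liver markers *Ttr* was at 0 in WT + TAM and in *Mtm1* KO. Their part in the levels of the 10 genes was not tested.

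Another 65 genes of the axis were followed in 4 lists, of which 62 had enough counts to be tested. *Stat4*, *Osm* and *Igfbp1* did not. The 4 lists were chosen with earlier results of these data known. *Mtm1* KO against WT is also the comparison that chose the set described above. Its p-values are therefore no independent test of the listed genes, and nothing is read from the count of calls. Between *Mtm1* KO and WT, 2 of the 62 were called, both lower, beside 3.60% of all genes tested (531 of 14740). These were *Jak2*, the kinase bound to the growth hormone receptor (-1.35 ± 0.17 SE; edgeR quasi-likelihood, adjusted p = 0.00203), and *Foxo4*, a transcription factor that Akt holds out of the nucleus (-0.85 ± 0.12 SE; adjusted p = 0.00419). *Jak2* stood at 53.57, 58.64 and 47.88 normalized CPM in WT and 25.47, 17.68 and 18.47 in *Mtm1* KO. With WT replicate 1 (19.09) and *Mtm1* KO replicate 12 (7.366) added, the log2 fold change of *Jak2* was still -1.35, with an adjusted p of 0.0836. The call of *Jak2* was also lost without *Mtm1* KO replicate 11 (adjusted p = 0.0112), and that of *Foxo4* was lost without any 1 of the 6 libraries, with the 2 libraries added (0.0141), with library size scaling (0.0126) and with limma.

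Between *Mtm1* KO + TAM and WT + TAM, 6 of the 62 were called, 3 higher and 3 lower, beside 6.72% of all genes tested. The count includes *Igfbp2*, which passed the filter on low counts through the group in which it is high. In the list of growth hormone and JAK-STAT signaling, 3 of 18 were called. *Jak2* was 1.99-fold lower (95% interval of the log2 fold change -1.44 to -0.55; edgeR quasi-likelihood, adjusted p = 0.0074), at 43.23, 70.24, 35.72 and 37.63 normalized CPM in WT + TAM and 20.28, 23.28, 22.32 and 27.64 in *Mtm1* KO + TAM. It thus stood lower together with the receptor it serves and with *Stat5b*, its substrate. Its call was lost with limma, with library size scaling (adjusted p = 0.023) and without WT + TAM replicate 5 or any 1 of the *Mtm1* KO + TAM libraries (0.0108 to 0.031). *Socs3*, an inhibitor of JAK kinases that STAT3 induces, was higher by 1.57 ± 0.21 (SE, adjusted p = 8.81e-04 in the edgeR fit), and the level of *Mtm1* KO + TAM, 16.25 to 31.33 normalized CPM, stood apart from 5.873 to 8.483 in WT + TAM, 5.318 to 8.347 in *Mtm1* KO and 5.098 to 8.595 in WT. *Ptpn2*, a phosphatase that acts on JAK kinases and STATs, was higher by 0.74 ± 0.13 (SE, adjusted p = 0.00369 in the edgeR fit), a call lost without WT + TAM replicate 7 (0.0112) or *Mtm1* KO + TAM replicate 15 (0.0148).

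Of the 7 STAT5-regulated genes tested, 1 was called. *Igfals*, which encodes the subunit that completes the circulating complex of *Igf1* and *Igfbp3*, was lower by -1.41 ± 0.23 on the log2 scale (SE; edgeR quasi-likelihood, adjusted p = 0.00268), at 4.65 to 7.281 normalized CPM in WT + TAM and 1.862 to 3.197 in *Mtm1* KO + TAM, and the call was lost without *Mtm1* KO + TAM replicate 15 (0.0122). Of the other 11 IGF ligands, receptors and binding proteins tested, 1 was called. *Igfbp2*, a binding protein, was higher by 3.60 ± 0.64 (SE; edgeR quasi-likelihood, adjusted p = 0.00386), from 0.3875, 0.3218, 0.4263 and 0.9682 normalized CPM in WT + TAM (8 to 23 counts) to 2.598, 15.68, 4.436 and 2.886 in *Mtm1* KO + TAM. It passed the filter on low counts through the group in which it is high, and it had no value where at least 10 counts were asked of every library. Without *Mtm1* KO + TAM replicate 14 its log2 fold change was 2.65 (adjusted p = 0.00356), and the call was lost without WT + TAM replicate 5 (0.0103), 6 (0.013) or 7 (0.0132) and with limma at a pseudocount of 1. *Stc2*, an inhibitor of the protease that frees *Igf1* from its binding proteins, had the lowest value of that list, -2.03, and did not pass (adjusted p = 0.0218); it was singled out after its value was seen. Of the 26 genes of IGF1 receptor signaling, 1 was called, *Foxo4*, lower by -0.84 ± 0.11 on the log2 scale (SE; edgeR quasi-likelihood, adjusted p = 9.05e-04), and 22 of the 26 had values below 0, with a median of -0.22 beside -0.01 over all genes. Between the untreated genotypes 15 of the 26 were below 0, with a median of -0.05 beside 0.02 over all genes. With library size alone the median over all genes was 0.27 between the treated genotypes, and the list was not counted under that scaling. With tamoxifen, 0 of the 62 were called within either genotype or as the mean over both, and at 0.05 the mean over both had 4 (286 of 15556 genes in all, or 1.84%), all higher: *Socs3* (0.92, adjusted p = 0.0118), *Igf2* (0.70, 0.0171), *Eif4ebp1* (0.78, 0.0238) and *Mcl1* (0.29, 0.0466), all from the edgeR fit. In *Mtm1* KO + TAM against *Mtm1* KO, 5 of the 62 had an unadjusted p under 0.05, beside 1137 of 15062 genes in all, and DESeq2 and the exact test called *Socs3* and *Igf2*. In WT + TAM against WT there were 14, beside 1549 of 14544 genes in all, and DESeq2 called 3 and the exact test 1. Over all genes DESeq2 and the exact test called 72 and 73 with tamoxifen in *Mtm1* KO, and 214 and 178 in WT.

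**Figure D4:**
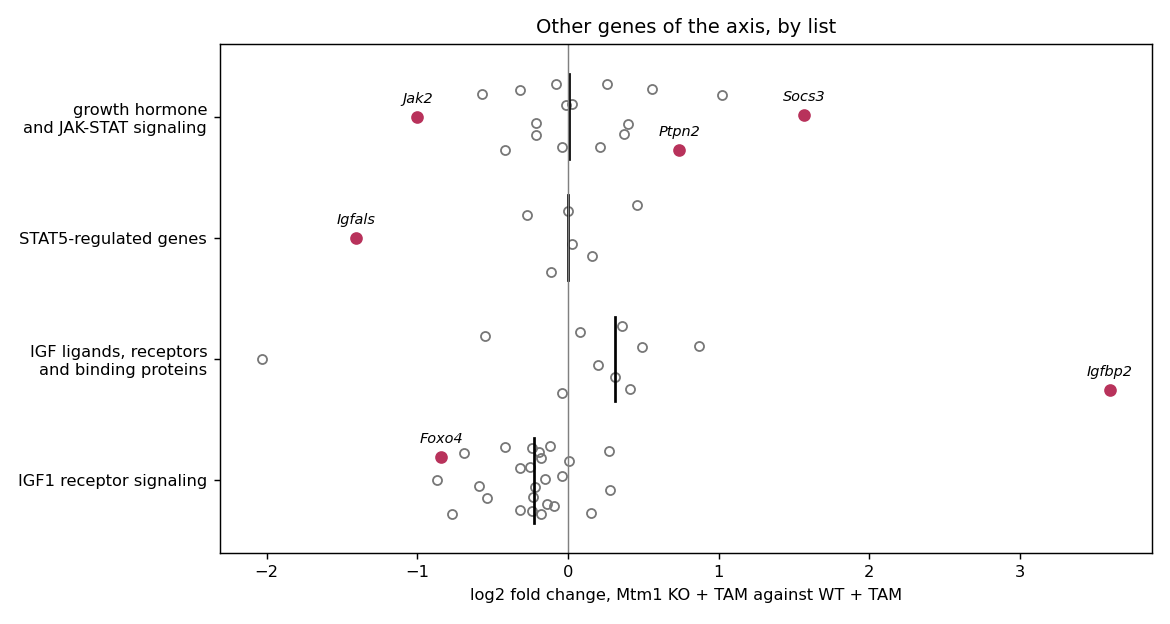
Log2 fold change between *Mtm1* KO + TAM and WT + TAM (horizontal axis) for the 62 other genes of the axis that were tested, in 4 lists. Filled points with names passed an adjusted p of 0.01, open points did not, and black lines are list medians. The 6 named genes lie between -1.41 for *Igfals* and 3.60 for *Igfbp2*, and the median of IGF1 receptor signaling is -0.22. *Igfbp2* passed the filter on low counts through the group in which it is high.

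For *Stat5b*, *Ghr* and *Igfbp5* the genes with the most similar profile over the 14 libraries were found by the root mean square difference between centred log2 CPM profiles, among 12831 genes. For *Stat5b* these were *Snrpn* (0.173), *Myo5c* (0.176) and *Syngr1* (0.18), beside a SD of *Stat5b* of 0.64. For *Ghr* they were *Sox6* (0.101), *Svip* (0.142) and *Lifr* (0.144), beside a SD of 0.517. For *Igfbp5* they were *Col24a1* (0.25), *Psd3* (0.283) and *Tet1* (0.288), beside a SD of 0.605. *Sox6*, a transcription factor of fast muscle fibers, had means of 127 ± 15.4, 132 ± 38.5, 63.3 ± 7.84 and 65.9 ± 6.55 normalized CPM (SD, n = 3, 4, 3 and 4) in untreated and treated wild type mice and untreated and treated knockouts, beside means of 143, 139, 73.9 and 72.1 for *Ghr*. *Col24a1*, a fibrillar collagen, had means of 6.45 ± 0.536, 3.18 ± 0.575, 4.30 ± 0.0976 and 2.39 ± 0.318 in that order, beside 742 ± 173, 389 ± 86.7, 455 ± 101 and 249 ± 28.9 for *Igfbp5*. *Lifr*, like *Ghr*, is a cytokine receptor that works through JAK kinases, and it had 63.3 ± 6.46 in WT and 29.0 ± 5.50 in *Mtm1* KO. The profiles share libraries and library scaling, and the values are a description.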

How the data were processed

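Total RNA from quadriceps was made into TruSeq libraries and sequenced. The authors mapped reads (STAR, GRCm38) and obtained gene counts (HTSeq), deposited as whole numbers without scaling. The deposited RPKM values were made by the authors from those counts. In 8679 genes the ratio of count to RPKM tracked each library's total to within a relative deviation of 0.00267. The submitters' processing notes name bcl2fastq 2.17, STAR 2.5.0c and Cufflinks 2.2.1. The sources used here give neither the annotation nor the strand setting of the counting.

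Counts of 2 groups were compared in edgeR 4.0.16 (R 4.3.3) with filterByExpr (minimum count 10, minimum total 15), TMM and the quasi-likelihood test. Adjustment was by Benjamini-Hochberg over all genes tested, at a threshold of 0.01. Intervals are at 95%. The interaction and the mean effect of tamoxifen used 1 fit of the 14 libraries. The *Stat5a* to *Stat5b* ratio was compared with exact permutation tests. Alternatives used DESeq2 1.42.0, edgeR's exact test, limma 3.58.1 on log2 RPKM (pseudocounts 0.1 and 1), other scalings and filters, a threshold of 0.05, the 16 libraries, and each library left out. Code was tested on simulated data. Positions are from GENCODE vM21, which holds 40254 of the 41388 identifiers.

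The 10 genes, the gene lists and the tests were chosen with earlier results of these data known. Named genes were the 10, called genes of the 4 lists (at most 6 per list and comparison) and the 3 genes with the closest profile (mean CPM of at least 1, prior count 2) to *Stat5b*, *Ghr* and *Igfbp5*. Genes passing only 0.05 were named in addition.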

Additional observations from a re-analysis of the deposited data

Results flagged for a closer look

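*Socs2* in *Mtm1* KO + TAM replicate 13 stood at 28.47 normalized CPM, above the other 3 libraries of its group (14.6 to 16.87), by a gap wider than Dixon's critical value for 4 libraries allows. Among 22 such checks (10 genes and the *Stat5a* to *Stat5b* ratio in the groups of 4), chance alone flags about 1 in 20. Without this library the log2 fold change of *Socs2* between *Mtm1* KO + TAM and *Mtm1* KO was -0.19, against 0.08 with it, and neither passed the threshold.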

How the results depend on the processing

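No paired analysis was possible because the groups share no replicate numbers and no label gives the litter. Of the 10 genes, 2 were called between *Mtm1* KO + TAM and WT + TAM, against 5 at a threshold of 0.05, 4 with DESeq2 and 1 to 4 with each library left out. For tamoxifen within a genotype the count was 0, and it became 1 with DESeq2 and 1 with the exact test in *Mtm1* KO and 2 and 2 in WT. For tamoxifen as the mean of both genotypes, 1 became 2 at 0.05, 3 with DESeq2 and 0 to 1 with each library left out, all chosen after seeing the data. The exact test was not run for this mean or for the interaction. The interaction had 0 of the 10 under each alternative run, and 5 of the 10 had values below 0 in *Mtm1* KO against WT, a count that stayed within 1.5 times under each alternative.

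Of the 62 other genes, 2 were called in *Mtm1* KO against WT, against 6 at 0.05, 9 with DESeq2, 4 with the exact test, 1 with limma at each pseudocount, 1 with library size scaling, 5 with no filter, 0 with the 2 libraries added and 0 to 1 with each library left out. In *Mtm1* KO + TAM against WT + TAM, 6 were called, against 12 at 0.05, 10 with DESeq2, 10 with the exact test, 10 with library size scaling and 3 to 7 with each library left out. For tamoxifen within *Mtm1* KO, 0 became 2 with DESeq2, 2 with the exact test and 1 with no filter, and within WT 3 with DESeq2 and 1 with the exact test. Over all genes DESeq2 called 1678, 1995, 72, 214 and 343, against 531, 979, 0, 19 and 92, for the genotypes untreated, the genotypes treated, tamoxifen in *Mtm1* KO, tamoxifen in WT and the mean effect of tamoxifen. The exact test called 1448, 1818, 73 and 178 in the same order, without the mean effect. The cause of the differences between tools was not tested. The calls in *Mtm1* KO against WT are no independent test of the listed genes, because that comparison chose the set.

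Signs turned for log2 fold changes that were not called. Between *Mtm1* KO + TAM and WT + TAM, limma (pseudocounts 0.1 and 1) and library size scaling gave *Igf1r* 0.09, 0.07 and 0.16, *Irs1* 0.15, 0.14 and 0.14, and *Igfbp3* 0.02, 0.02 and 0.02, and leaving out libraries gave *Igf1r* -0.39 to 0.01. With the 2 libraries added, *Ghr* with tamoxifen was 0.17 in *Mtm1* KO, 0.18 in WT and 0.18 in the mean of both, and with libraries left out it ran from -0.17 to 0.13, -0.21 to 0.03 and -0.12 to 0.05. With tamoxifen in *Mtm1* KO, *Socs2* was -0.01 and -0.01 with limma, -0.11 with the 2 added and -0.19 to 0.19 with libraries left out, and *Stat5b* ran from -0.01 to 0.11. For tamoxifen in WT, leaving out libraries gave *Stat5a* -0.10 to 0.23, *Cish* -1.03 to 0.32 and *Igfbp3* -0.03 to 0.16. The interaction of *Igfbp5* was -0.01 with library size scaling, -0.19 with the 2 added and -0.13 to 0.26 with libraries left out.

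The differences in marker lists moved when the mean log2 normalized CPM replaced the summed RPKM. The mean log2 CPM weighs markers equally and is also scaled with TMM rather than by library size alone. For *Mtm1* KO against WT it gave -0.88 for muscle fiber, 0.10 for fibroblast, 0.45 for macrophage, 1.04 for satellite cell and -0.68 for liver markers. For *Mtm1* KO + TAM against WT + TAM it gave -0.82 for muscle fiber, 0.32 for fibroblast, -0.21 for endothelial and 0.69 for satellite cell markers, and for tamoxifen in *Mtm1* KO -0.10 for fat cell and -0.06 for satellite cell markers. The edgeR log2 fold changes between genotypes, also scaled with TMM, were -0.93 untreated and -0.94 treated for *Ghr*. For *Stat5b* they were -1.10 and -1.34. Whether fiber content or fiber type has a part in these values was not tested. With the 2 libraries added, satellite cell markers differed by 2.22 in *Mtm1* KO against WT and by -0.69 with tamoxifen in *Mtm1* KO. The differences in the *Stat5a* to *Stat5b* ratio moved by less than the pooled SD of the 2 groups compared under each alternative run, although WT + TAM against WT went from -0.19 to -0.01 without WT replicate 2. Depth limits *Igfbp2* most among the genes named as called, with 8 to 23 counts per WT + TAM library.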
